A study of Mus musculus with 6 samples.

Results

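Axon and vessel guidance genes encode the ligands and receptors that steer growing axons and also sprouting vessels, and 66 of them were measured among the 22180 genes of these arrays. They were taken by symbol as the semaphorins and plexins, the ephrins and Eph receptors, the netrins and Unc5 receptors, and the Slits and Robo receptors, which gave 36 ligands and 30 receptors. Each gene was represented by the probe set with the highest mean over the 6 arrays. The symbol Unc50 also matches the letters of this rule, but belongs to an unrelated protein and was left out.

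Guidance ligands act at short or long range on receptors that rearrange the actin cytoskeleton and adhesion of the receiving cell. Slits are secreted and bind Robo receptors. Class 3 semaphorins are secreted and signal through plexins with neuropilins as coreceptors, whereas the other vertebrate semaphorins are mostly membrane bound and bind plexins directly. Ephrins and Eph receptors both sit in the membrane, so that they act between touching cells. The founding netrin, encoded by Ntn1, signals through Dcc, neogenin and Unc5 receptors. In blood vessels, ephrin-B2 is known as a mark of arterial endothelium that is also required in mural cells, and its receptor EphB4 as a mark of veins.

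The cells came from T241 fibrosarcomas, a mouse tumor line, grown under the skin of the back in C57BL/6 mice. The vector group held 3 samples from tumors of T241 cells with an empty vector and the FGF-2 group 3 samples from tumors of T241 cells that stably overexpressed human FGF-2, and tumors of both groups were of similar size when the cells were isolated. After digestion with collagenase, NG2+EGFP− cells were sorted by flow cytometry. Tumor cells of both groups carried GFP, so that this gate was set to leave them out, and NG2 is a proteoglycan of pericytes and related stromal cells. The C57BL/6 mice were female and were 6 to 8 weeks old when bought. Whether a sample pooled several tumors is not given in the sources used here. Each sample was read on 1 Affymetrix 2.0 ST mouse gene array, and levels are log2 values that a service laboratory had normalized. Array medians ran from 4.93 to 5.01. The FGF-2 and vector arrays were compared with two-sided limma tests, and rose or fell is used of a gene whose Benjamini-Hochberg adjusted p over all 22180 genes was under 0.05. A sorted population was measured as a whole, so fewer cells of a type and less RNA per cell cannot be told apart. A probe set's brightness depends on its sequence, so that a level is set only against that of the same gene in the other group.

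Among the 66 guidance genes, 7 rose in the FGF-2 group, none fell and 59 did not pass. Over all genes 228 rose, which is 1.03%, and 63 fell, which is 0.284%. All 7 also had a log2 difference over 1, as 0.64% of all genes did with a rise. The 7 were the ligands Slit2, Slit3, Sema3a, Sema5a, Sema7a and Efnb2 and the receptor Robo1, so 6 of 36 ligands and 1 of 30 receptors passed. None of the netrin, ephrin-A, plexin, EphA, EphB or Unc5 genes passed. At an unadjusted p under 0.05 from limma, 10 guidance genes were higher and 3 lower, against 8.13% and 6.48% of all genes. Their median log2 difference was -0.01, with 31 higher and 35 lower means, beside a median of -0.02 for all genes. The difference plot by family shows 7 genes standing to the right of the rest.

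**Figure D1:**
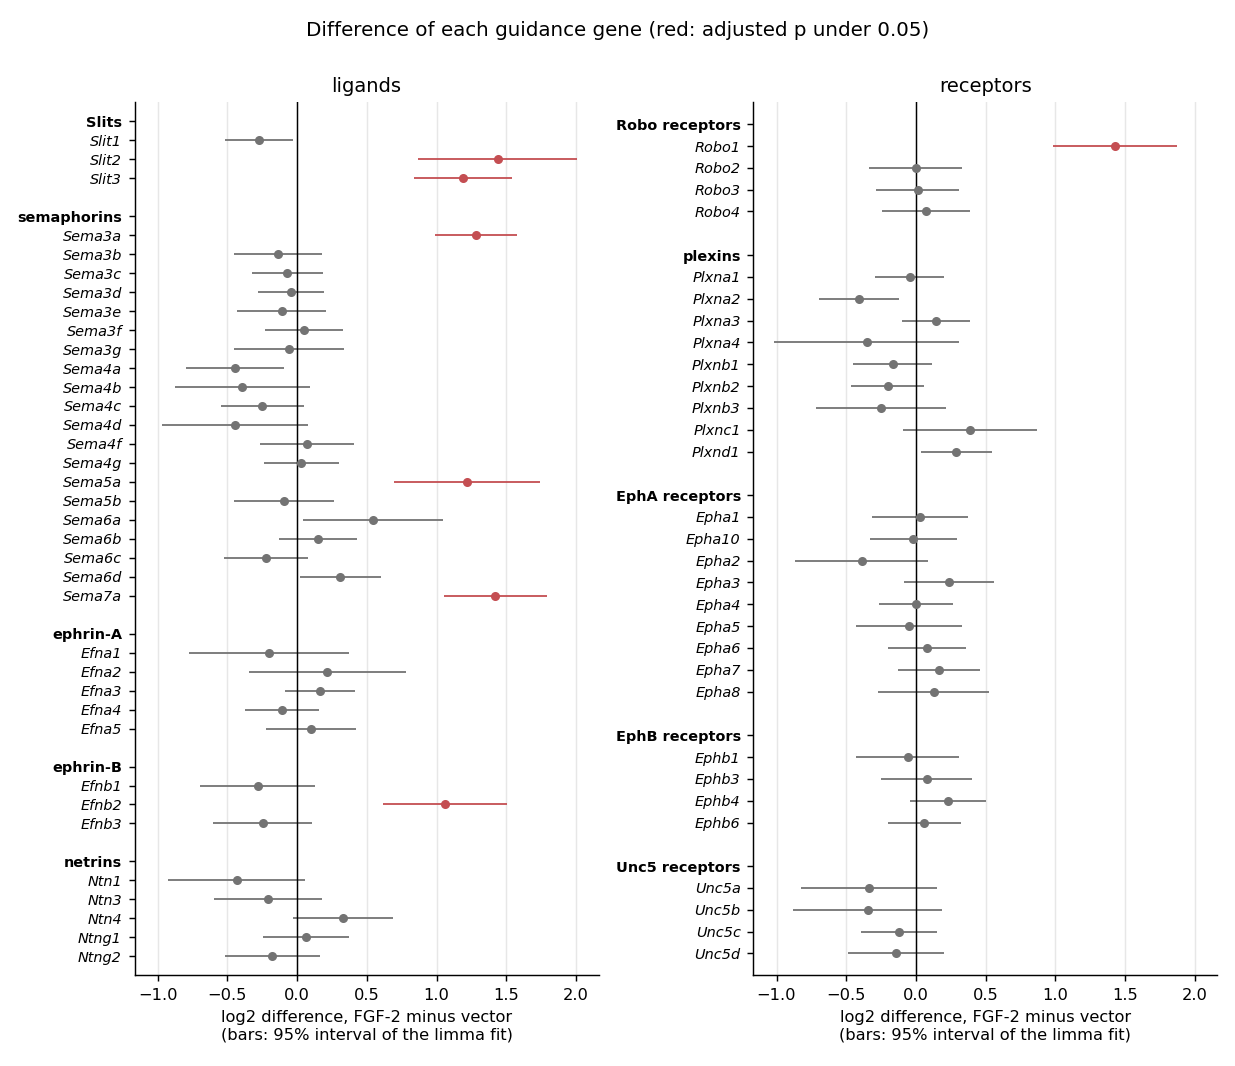
Log2 difference of each of the 66 guidance genes, FGF-2 minus vector, with the 95% interval of the limma fit, ligands in the left panel and receptors in the right panel, grouped by family. The 7 genes that passed are in red and lie between 1.06 and 1.44, and the other 59 lie between -0.45 and 0.54.

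Slit2 and Slit3, both secreted ligands of the Slit family, rose together with Robo1, a receptor for them. Slit2 (probe set 17437302) had log2 levels of 4.21, 4.71 and 4.10 in vector replicates 1 to 3 and of 6.02, 6.14 and 5.16 in FGF-2 replicates 1 to 3. Its lowest FGF-2 array lay above its highest vector array, although FGF-2 replicate 3 stood well below the other FGF-2 arrays. The mean went from 4.34 ± 0.32 to 5.77 ± 0.53 (SD, n = 3 per group), a log2 difference of 1.44 (SE 0.25, adjusted p = 0.0321 from limma) or 2.71-fold.

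Slit3 (probe set 17248426) had levels of 6.57, 6.82 and 6.27 in the vector arrays and of 7.93, 7.68 and 7.61 in the FGF-2 arrays. The groups did not overlap, and the 3 FGF-2 arrays lay close together. The log2 difference was 1.19 (SE 0.16, adjusted p = 0.00742 from limma) or 2.28-fold. Slit1, known mainly as a Slit of the nervous system, went the other way without passing. Its levels were 5.77, 5.77 and 5.88 in the vector arrays and 5.61, 5.41 and 5.58 in the FGF-2 arrays, a log2 difference of -0.28 (95% interval -0.52 to -0.03, adjusted p = 0.286 from limma).

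Robo1 (probe set 17326604) had levels of 4.13, 4.73 and 4.55 in the vector arrays and of 6.13, 6.05 and 5.51 in the FGF-2 arrays. All FGF-2 arrays stood above all vector arrays, with replicate 3 again the lowest of its group. The difference was 1.43 on the log2 scale (SE 0.20, adjusted p = 0.00975 from limma) or 2.69-fold. The other receptors of the family gave values near 0. Robo2 was at 4.25, 4.41 and 3.87 in the vector group against 4.27, 4.09 and 4.16 in the FGF-2 group, with full overlap. The difference was -0.00 for Robo2 (95% interval -0.33 to 0.33), 0.01 for Robo3 (-0.28 to 0.31) and 0.07 for Robo4, the Robo receptor of endothelium (-0.25 to 0.39). Differences between Robo1 and its relatives were not tested.

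The stretches before the starts of Slit2, Slit3 and Robo1 are shown because ligand and receptor of one system rose together. They are the 250 bases that precede the RefSeq start of each gene on the plus strand of GRCm38.p6, at chr5:47982905-47983154 for Slit2, chr11:35121206-35121455 for Slit3 and chr16:72662899-72663148 for Robo1. Capitals mark GCGTG on either strand, the core of the element bound by the transcription factor AHR, or TATAAA, the TATA box.
Slit2: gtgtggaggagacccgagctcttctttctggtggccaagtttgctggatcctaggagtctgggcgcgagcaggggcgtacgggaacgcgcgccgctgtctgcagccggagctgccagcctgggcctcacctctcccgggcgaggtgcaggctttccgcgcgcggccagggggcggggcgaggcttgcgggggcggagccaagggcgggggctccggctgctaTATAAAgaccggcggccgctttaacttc
Slit3: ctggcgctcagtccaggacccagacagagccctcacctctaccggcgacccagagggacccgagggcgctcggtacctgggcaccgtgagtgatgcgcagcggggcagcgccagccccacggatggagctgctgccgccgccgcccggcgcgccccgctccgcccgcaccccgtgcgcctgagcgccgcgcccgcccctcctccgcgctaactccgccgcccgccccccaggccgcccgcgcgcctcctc
Robo1: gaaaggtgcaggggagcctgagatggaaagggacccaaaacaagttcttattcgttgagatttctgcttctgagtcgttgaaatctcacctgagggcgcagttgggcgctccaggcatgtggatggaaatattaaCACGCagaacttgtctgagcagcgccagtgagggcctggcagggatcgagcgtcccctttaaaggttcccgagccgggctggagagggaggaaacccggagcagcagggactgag

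The GC content of the 3 stretches was 69.6% for Slit2, 78.8% for Slit3 and 56.0% for Robo1, beside a median of 52.4% over 32851 such stretches of all genes. Slit2 holds TATAAA starting 28 bases before its start. Somewhere on either strand, TATAAA was in 2 of the 7 risen genes, Slit2 and Efnb2, and in 12.4% of all stretches. Robo1 holds the AHR core once, 115 bases before its start, and Slit2 and Slit3 do not hold it. Among the 7 risen guidance genes 3 had the core (Robo1, Sema5a and Sema7a), and the share was 28.2% over all stretches. These letters also occur within the hypoxia response core. TGANTCA, bound by AP-1, was in none of the 7 and in 6.75% of all stretches, and GGAATG, bound by TEAD factors, was in 1 of the 7, Efnb2, and in 12.6% of all. Of the 66 guidance genes 57 had a sequence in the table used. A match is a run of letters and not a measured site.

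The plot of the risen genes by array shows 3 semaphorins beside the Slits, Robo1 and Efnb2. Semaphorins were the largest family here, with 20 genes, and 3 of them rose by more than 1 on the log2 scale while the others stayed between -0.45 and 0.54. Sema3a, the secreted class 3 semaphorin first known for collapsing growth cones, was at 3.85, 4.0 and 4.22 in the vector arrays and at 5.46, 5.28 and 5.17 in the FGF-2 arrays (probe set 17434764). Its groups were wide apart, with little spread inside either. The mean went from 4.02 ± 0.19 to 5.30 ± 0.14 (SD, n = 3 per group), a log2 difference of 1.28 (SE 0.13, adjusted p = 0.00282 from limma). The 6 other class 3 semaphorins had differences between -0.14 for Sema3b and 0.05 for Sema3f, and none passed. Those of Sema3c, Sema3d, Sema3e and Sema3g were -0.07, -0.04, -0.11 and -0.06.

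Sema7a, a semaphorin held in the membrane by a lipid anchor that acts on plexin C1 and integrins, had levels of 7.27, 7.35 and 7.81 in the vector arrays and of 9.09, 8.90 and 8.70 in the FGF-2 arrays (probe set 17517812). The lowest FGF-2 array again exceeded the highest vector array. The log2 difference was 1.42 (SE 0.16, adjusted p = 0.00429 from limma) or 2.68-fold. Sema5a, a transmembrane semaphorin with thrombospondin repeats, was at 4.88, 5.69 and 4.78 in the vector arrays and at 6.52, 6.44 and 6.05 in the FGF-2 arrays (probe set 17310837). Vector replicate 2 stood above the other vector arrays here and came nearest to the FGF-2 arrays. The difference was 1.22 (SE 0.23, adjusted p = 0.0423 from limma).

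Of the semaphorins that did not pass over all genes, 3 had an unadjusted p under 0.05 from limma. Sema4a, known from myeloid cells and lymphocytes, was at 7.74, 8.19 and 7.65 in the vector arrays and at 7.28, 7.55 and 7.41 in the FGF-2 arrays, a log2 difference of -0.45 (adjusted p = 0.228). Its groups did not overlap, but their nearest arrays lay close together. Sema6d was at 6.87, 6.92 and 7.19 in the vector arrays and at 7.48, 7.23 and 7.21 in the FGF-2 arrays, a difference of 0.31 (adjusted p = 0.314). Sema6a had levels of 4.30, 4.21 and 4.67 against 5.47, 4.78 and 4.57, a difference of 0.54 (adjusted p = 0.304). Its groups overlapped, and FGF-2 replicate 1 stood apart above the other arrays. Sema4d, the CD100 antigen of lymphocytes, and Sema4b had differences of -0.44 and -0.39, with 95% intervals of -0.97 to 0.08 and -0.88 to 0.09. Vector replicate 3 differed from the mean of the other vector arrays by -0.71 in Sema4d and by 0.78 in Sema4b. The other semaphorins outside class 3 had differences from -0.25 for Sema4c to 0.15 for Sema6b.

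Plexins, the receptors of semaphorins, gave no call in either direction among 9 genes, and their median log2 difference was -0.17. Plxna2 was at 4.50, 4.45 and 4.71 in the vector arrays and at 4.08, 4.33 and 4.02 in the FGF-2 arrays, a difference of -0.41 (95% interval -0.69 to -0.12, adjusted p = 0.181 from limma). Plxnd1, a plexin of vessels that binds semaphorin 3E, was at 9.11, 8.89 and 9.01 in the vector arrays and at 9.39, 9.19 and 9.30 in the FGF-2 arrays, a difference of 0.29 (0.04 to 0.54, adjusted p = 0.278). Neither gene had overlapping groups, yet neither difference passed. Plxnc1, which binds Sema7a, was at 8.54, 8.46 and 7.70 in the vector arrays and at 8.56, 8.84 and 8.46 in the FGF-2 arrays, and its difference of 0.39 had an interval of -0.09 to 0.87. The plexins that take up Sema3a signals together with neuropilin 1 had differences of -0.05 for Plxna1, 0.15 for Plxna3 and -0.35 for Plxna4, the last with an interval of -1.01 to 0.31. In Plxna4 vector replicate 3 stood 1.05 above the mean of the other vector arrays. Plxnb3, known to bind Sema5a, had a difference of -0.25 (-0.72 to 0.21), Plxnb1 of -0.17 and Plxnb2 of -0.20. Plxna1 and Plxnb1 each had another probe set, with differences of -0.18 and -0.16.

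**Figure D2:**
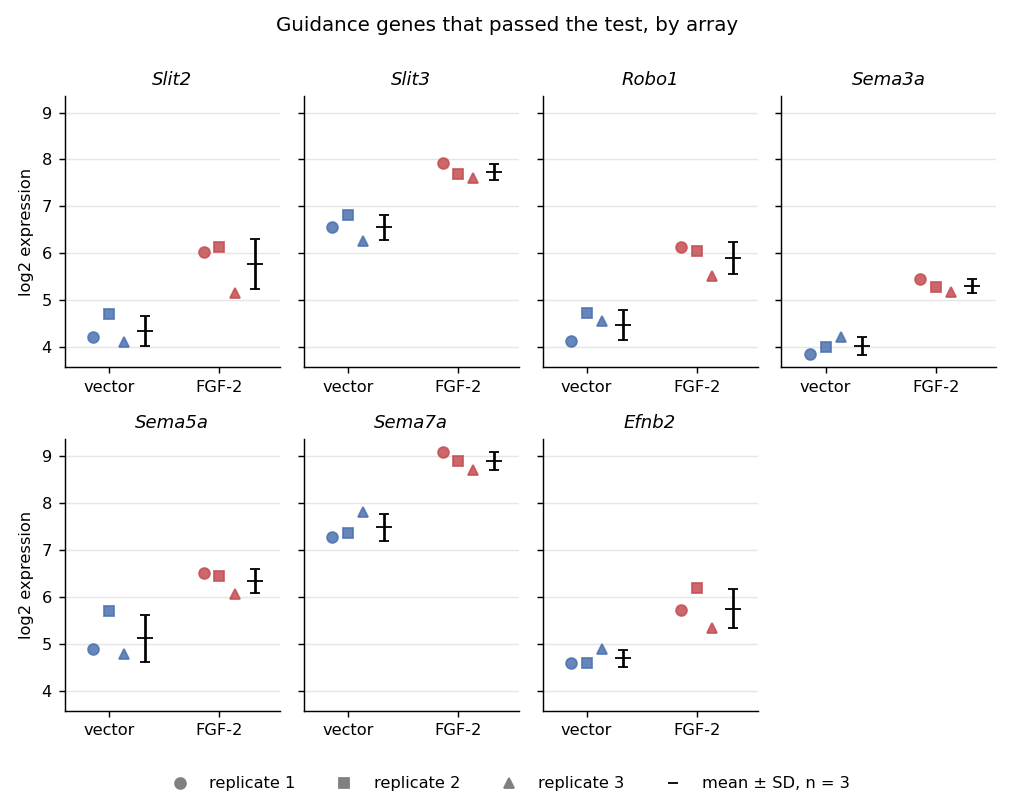
Log2 expression of the 7 guidance genes that passed, in each array of the vector and FGF-2 groups, with the replicate by symbol and the mean ± SD (n = 3) beside the points. In each gene the 3 FGF-2 arrays lie above the 3 vector arrays, and FGF-2 replicate 3 is the lowest of its group.

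Ephrin-B2 was the 1 gene of the ephrins and Eph receptors that passed. Efnb2, which encodes it, was at 4.58, 4.58 and 4.89 in the vector arrays and at 5.72, 6.18 and 5.34 in the FGF-2 arrays (probe set 17507321). The groups were separate, and the FGF-2 arrays spread more than the vector arrays did. The mean rose from 4.68 ± 0.18 to 5.74 ± 0.42 (SD, n = 3 per group), a log2 difference of 1.06 (SE 0.20, adjusted p = 0.0389 from limma) or 2.08-fold. Efnb1 was at 7.63, 7.39 and 8.15 against 7.52, 7.27 and 7.53, with overlap. It and the remaining ephrin-B gene had lower means that did not pass, with differences of -0.28 for Efnb1 and -0.25 for Efnb3. Without vector replicate 3 the difference of Efnb1 was -0.07.

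None of the 4 EphB receptors measured, Ephb1, Ephb3, Ephb4 and Ephb6, passed. Other EphB receptors were not analysed here. The plot of receptors by array shows 3 of the 4 beside the plexins and Robo receptors. Ephb4 was at 5.01, 5.09 and 5.21 in the vector arrays and at 5.31, 5.51 and 5.19 in the FGF-2 arrays, a difference of 0.23 (95% interval -0.04 to 0.50, adjusted p = 0.421 from limma). The groups overlapped at FGF-2 replicate 3. Ephb3, Ephb6 and Ephb1 had differences of 0.08, 0.06 and -0.06, and the other probe set of Ephb1 gave -0.27. Ephb1 was at 5.03, 4.96 and 4.53 against 4.52, 4.90 and 4.92, so that 1 array of each group stood low. Epha4, an EphA receptor that also binds ephrin-B2, had a difference of -0.00 (-0.27 to 0.27).

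The ephrin-A ligands and EphA receptors stayed within ±0.4 on the log2 scale. Among 5 ephrin-A genes the differences ran from -0.20 for Efna1 to 0.21 for Efna2, both with wide intervals (-0.77 to 0.37 and -0.35 to 0.78). Efna1 was at 7.63, 7.18 and 8.19 in the vector arrays and at 7.50, 7.09 and 7.82 in the FGF-2 arrays, a wide spread in each group. Efna2 was at 6.49, 5.97 and 6.94 against 6.79, 6.27 and 6.98, and in both groups replicate 2 was the lowest array. Among 9 EphA receptors the range was -0.39 for Epha2 to 0.24 for Epha3. Epha2, the main receptor of ephrin-A1, was at 7.67, 7.64 and 8.47 against 7.59, 7.37 and 7.65, so that its lower FGF-2 mean rested mainly on vector replicate 3, and without that array the difference was -0.12. Epha3 was at 5.07, 4.77 and 4.93 against 5.43, 5.02 and 5.03, with FGF-2 replicate 1 the highest array. The rest of the EphA genes, Epha1, Epha4, Epha5, Epha6, Epha7, Epha8 and Epha10, lay between -0.05 and 0.16.

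**Figure D3:**
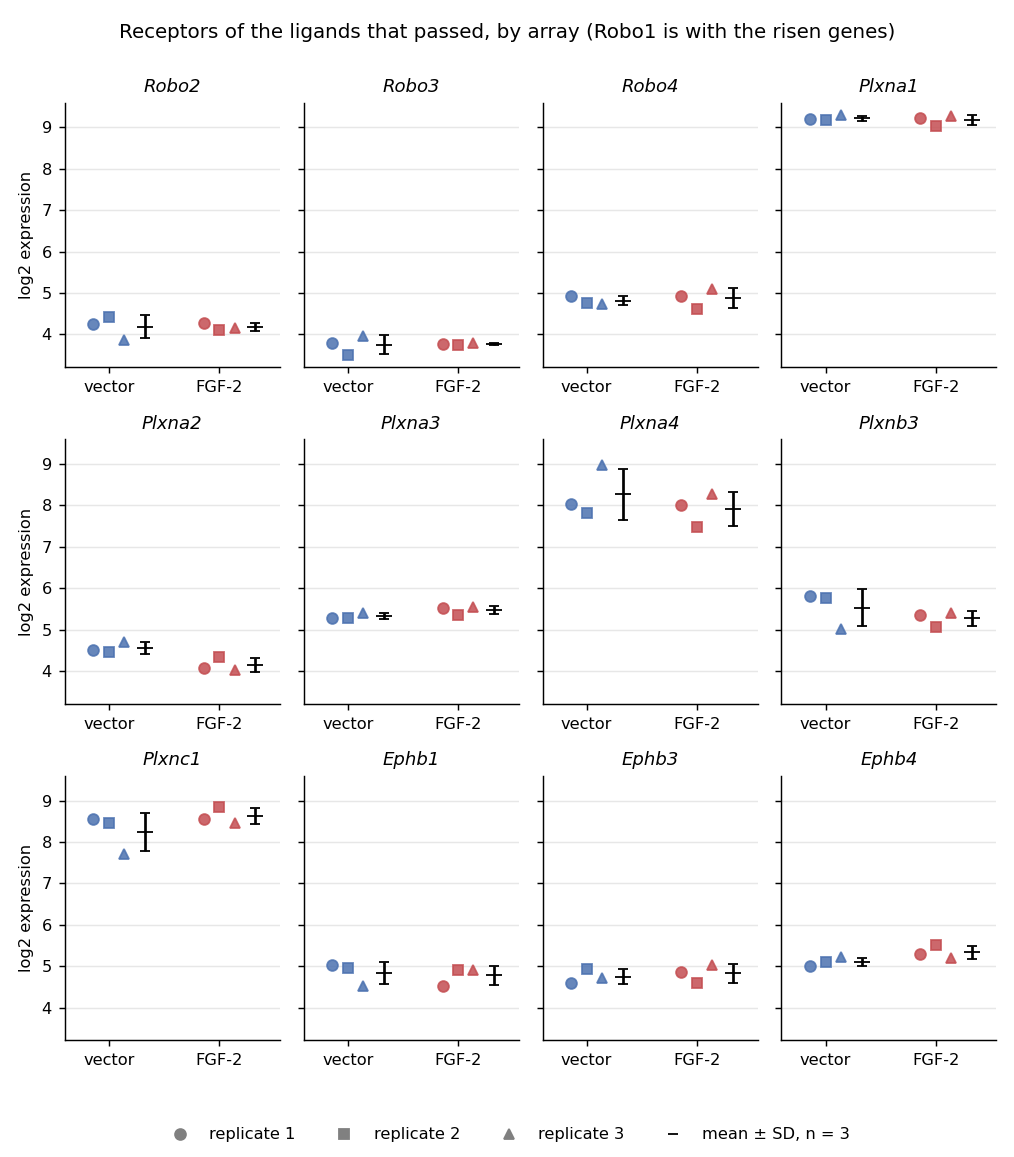
Log2 expression in each array of receptors of the ligands that passed, Robo2 to Robo4 for the Slits, plexins for Sema3a, Sema5a and Sema7a, and EphB receptors for ephrin-B2, with the mean ± SD (n = 3). The groups overlap in each of these 12 genes except Plxna2, which was lower in the FGF-2 arrays by 0.41 without passing (adjusted p = 0.181).

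The netrins, with Ntng1 and Ntng2 taken in by symbol, and the Unc5 receptors gave no call among 9 genes. Ntn4, a netrin of basement membranes, was at 4.60, 4.60 and 4.94 in the vector arrays and at 5.02, 5.33 and 4.79 in the FGF-2 arrays, a log2 difference of 0.33 (95% interval -0.03 to 0.69, adjusted p = 0.380 from limma). Ntn1, the founding member of the family, was at 7.30, 7.12 and 7.93 against 7.24, 6.68 and 7.13, a difference of -0.43 (-0.92 to 0.06, adjusted p = 0.403). Ntn3, Ntng1 and Ntng2 had differences of -0.21, 0.07 and -0.18. The 4 Unc5 receptors all had lower means in the FGF-2 group, from -0.12 for Unc5c to -0.35 for Unc5b, and none had an unadjusted p under 0.05. Unc5c was at 4.57, 4.74 and 4.61 against 4.32, 4.62 and 4.61, with overlap. Unc5b, the Unc5 receptor of endothelium, was at 7.07, 6.92 and 7.94 in the vector arrays and at 7.08, 7.01 and 6.80 in the FGF-2 arrays. Here too vector replicate 3 stood high, and without it the difference was -0.03.

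Arrays of the same group differed from each other in ways that recurred from gene to gene, as the heat map of deviations shows. Vector replicate 3 was the highest vector array in 36 of the 66 guidance genes or 54.5%, beside 37.4% of all genes. In 11 genes it stood more than 0.5 above the mean of the other vector arrays, by 1.05 in Plxna4, 0.95 in Unc5b, 0.82 in Epha2, 0.79 in Efna1 and 0.78 in Sema4b. In 4 genes it stood more than 0.5 below, by -0.80 in Plxnc1, -0.77 in Plxnb3, -0.71 in Sema4d and -0.51 in Sema5a. FGF-2 replicate 3 was the lowest FGF-2 array in 7 of the 7 risen genes, beside 50.9% of the 228 genes that rose. Vector replicate 2 was the highest vector array in 4 of the risen genes, Slit2, Slit3, Robo1 and Sema5a, and vector replicate 3 in the other 3.

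**Figure D4:**
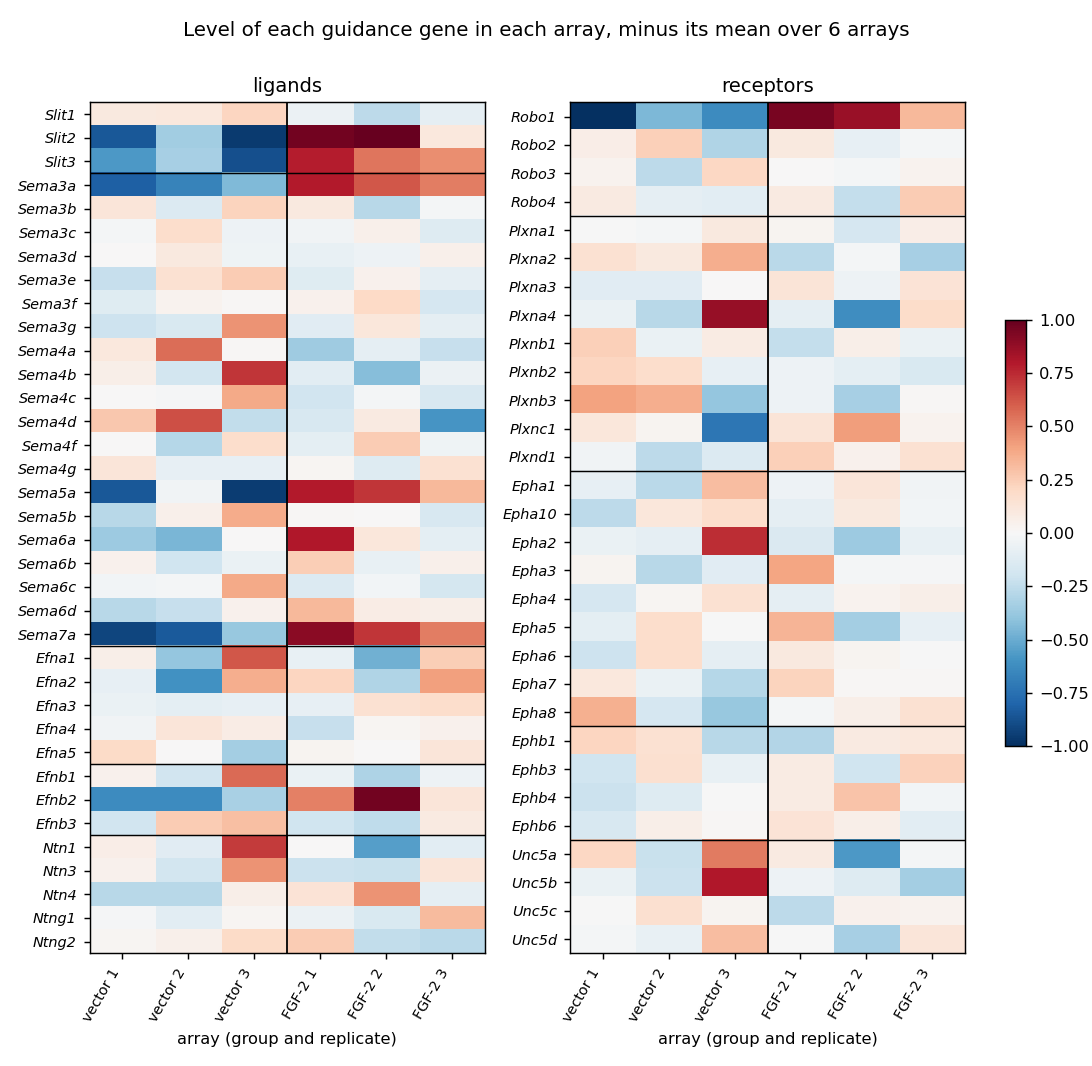
Level of each of the 66 guidance genes in each array minus that gene's mean over the 6 arrays (log2, colour ends at ±1), ligands at the left and receptors at the right, with lines between families. The 7 genes that passed are blue in the vector columns and red in the FGF-2 columns, and vector replicate 3 stands out in Plxna4, Unc5b, Epha2 and Efna1.

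Of 27 measured coreceptors and other ligands that work with these families 1 rose, none fell and 26 did not pass. Over all genes 1.03% rose and 0.284% fell. Means of the coreceptors and other ligands were higher for 12 and lower for 15, with a median log2 difference of -0.02. At an unadjusted p under 0.05 from limma 4 were higher and 2 lower, against 8.13% and 6.48% of all genes. The gene that rose was Flrt3, which encodes a membrane protein that binds Unc5 receptors and Robo1. It was at 5.72, 5.02 and 5.46 in the vector arrays and at 6.14, 6.44 and 6.52 in the FGF-2 arrays, a difference of 0.97 (adjusted p = 0.0395 from limma). Ptk7, a plexin-binding pseudokinase of planar polarity, had a difference of 0.71 that did not pass (adjusted p = 0.0737), and Sdc3, a heparan sulfate proteoglycan, of -0.54 (adjusted p = 0.107). Kdr, the main VEGF receptor of endothelium, Draxin, a secreted ligand of Dcc, and Cntn2, an adhesion protein of axons, had differences of 0.59, 0.33 and -0.26 (adjusted p = 0.33, 0.316 and 0.282). Nrp1, the neuropilin through which Sema3a acts, was at 9.72, 9.56 and 8.77 in the vector arrays and at 9.79, 9.78 and 9.53 in the FGF-2 arrays. The groups overlapped, with vector replicate 3 the lowest array, and the difference was 0.35 (95% interval -0.15 to 0.85). Nrp2 and the netrin receptors Neo1 and Dcc had differences of -0.07, -0.01 and -0.07.

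Of 45 intracellular effectors of guidance receptors 1 rose and 44 did not pass, with a median log2 difference of -0.02. The share that rose was 1.03% over all genes. At an unadjusted p under 0.05 from limma 4 effectors were higher and 6 lower, against 8.13% and 6.48% of all genes. Enah, an actin regulator of the Ena/VASP family that Robo receptors bind, was at 4.39, 4.26 and 4.46 in the vector arrays and at 5.50, 5.66 and 5.18 in the FGF-2 arrays. The groups did not overlap, and the difference was 1.08 (adjusted p = 0.00721 from limma). Dpysl2, a CRMP protein downstream of Sema3a, had a difference of -0.37, Chn1, a Rac GTPase-activating protein downstream of EphA4, of 0.86, and the small GTPase gene Rras of -0.37 (adjusted p = 0.118, 0.154 and 0.158). None of 11 proteases that process guidance proteins passed in limma, and 1 of them, Rhbdl2, had an unadjusted p under 0.05, with a difference of 0.51 (adjusted p = 0.121).

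Markers of stromal cells moved in the same arrays. All 15 markers of pericytes and smooth muscle had higher means in the FGF-2 group and 6 rose, with a median log2 difference of 0.74, and all 12 fibroblast markers were higher and 7 rose, with a median of 1.16. The mean level of the pericyte list was 5.93 to 6.12 in the vector arrays and 6.69 to 7.06 in the FGF-2 arrays, and that of the fibroblast list 6.38 to 7.15 and 7.91 to 8.39. The pericyte and smooth muscle markers that rose were Rgs5, by 3.11 on the log2 scale, Abcc9, Ndufa4l2, Acta2, Kcnj8 and Mcam, and the fibroblast markers were Lum, by 3.52, Dcn, Postn, Mfap5, Thy1, Col3a1 and Fap. Cspg4, the gene of the sorting antigen NG2, had levels of 5.67 and 6.08 (adjusted p = 0.161 from limma). The fibroblast list was highest in vector replicate 2 among the vector arrays and lowest in FGF-2 replicate 3 among the FGF-2 arrays. Slit2, Slit3, Robo1 and Sema5a had those same highest and lowest arrays, and so did the endothelial and the macrophage and monocyte lists. FGF-2 replicate 3 was also the lowest FGF-2 array for the lymphocyte and neutrophil lists. The pericyte list was highest in vector replicate 3 and lowest in FGF-2 replicate 3, as were Sema3a, Sema7a and Efnb2. The part of stromal cell numbers in the rises of the guidance genes was not tested.

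Of the guidance genes known from mural cells and fibroblasts 5 of 14 rose, Slit2, Slit3, Robo1, Sema3a and Sema5a. Of those known from endothelium 1 of 11 rose, Efnb2, and of those known from leukocytes 1 of 7, Sema7a. The leukocyte list held Sema4a, Sema4b, Sema4d, Sema7a, Plxnb2, Plxnc1 and Epha2. A place in a list does not mean that a gene is confined to that cell type. Means were higher for 8 and lower for 6 in the mural cell and fibroblast list. They were higher for 7 and lower for 4 in the endothelial list, and for 2 and 5 in the leukocyte list. These lists were chosen with earlier results of these data known, so their counts are no test of where the rises came from. Endothelial markers gave 1 rise, that of Emcn, and 13 that did not pass, with a median log2 difference of 0.17, and the list's mean was 5.76 to 5.88 in the vector arrays and 5.90 to 6.22 in the FGF-2 arrays. Macrophage and monocyte markers had a mean of 10.59 to 10.99 in the vector group and of 10.70 to 10.86 in the FGF-2 group, and 1 of 14 fell, Cx3cr1. Lymphocyte markers had a mean of 5.18 to 5.66 in the vector arrays and of 5.06 to 5.21 in the FGF-2 arrays. Of the 10 measured 9 had lower means, with a median log2 difference of -0.39, and none passed. At an unadjusted p under 0.05 from limma 5 were lower and none higher, against 6.48% and 8.13% of all genes. Sema4a and Sema4d had differences of -0.45 and -0.44 that did not pass. The neutrophil list stood at a mean of 4.76 to 4.85 and 4.88 to 5.0. Of its 8 genes 1 rose, Mmp8, by 1.42, whereas 5 had lower means, S100a9 at -0.56 without passing in limma (adjusted p = 0.139), and the median difference was -0.03. The glial list stood at 5.23 to 5.34 and 5.08 to 5.17 with 0 of 6 called, and the neuron list at 4.69 to 4.86 and 4.70 to 4.82 with 0 of 8 called. No background level comes with the values, so presence or absence of a gene at such levels was not judged. The part of these cell types in the differences of guidance genes was not tested.

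**Figure D5:**
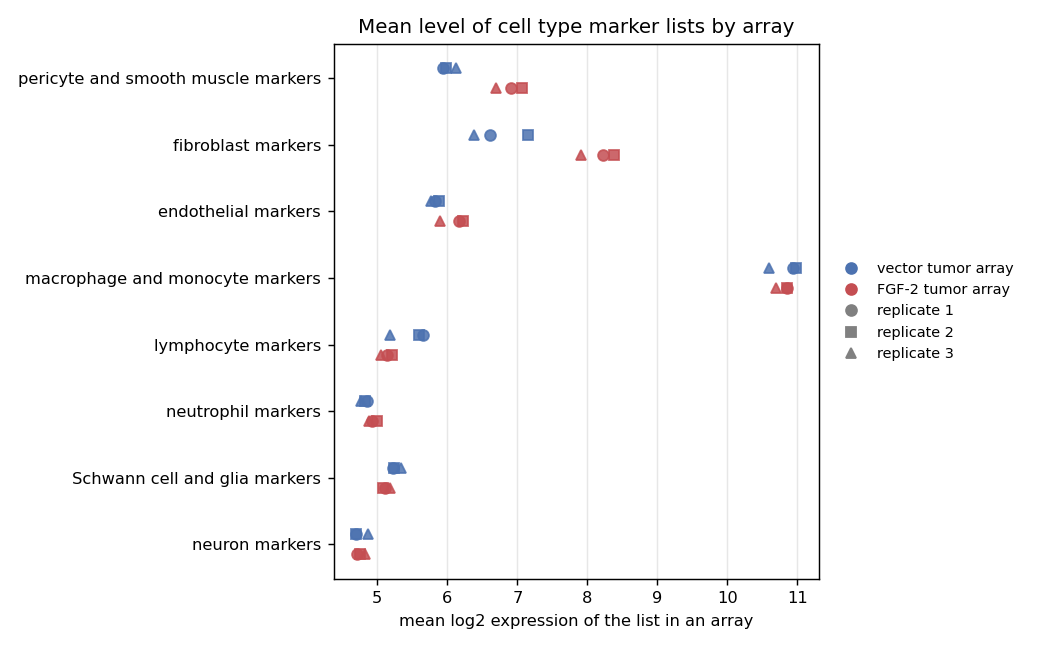
Mean log2 expression of 8 lists of cell type markers in each array, vector in blue and FGF-2 in red, with the replicate by symbol. The pericyte, fibroblast, endothelial and neutrophil list means are higher and the glial list mean lower in the FGF-2 arrays without overlap. Of the 8 neutrophil genes 5 nonetheless had lower means. The macrophage, lymphocyte and neuron lists overlap, although 9 of the 10 lymphocyte genes had lower means.

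The calls rested on 3 arrays per group, and leaving out 1 array changed several of them. Sema3a and Sema7a passed whichever array was left out, with adjusted p values of at most 0.0247 and 0.0356 from limma. Slit3 did not pass without FGF-2 replicate 1 (adjusted p = 0.0600), and Robo1 without FGF-2 replicate 1 or 2 (0.0685 and 0.0569). Slit2 did not pass without vector replicate 1 or 3 (0.106 and 0.0599) or FGF-2 replicate 1 or 2 (0.158 and 0.120). Efnb2 did not pass without vector replicate 1 or 2 (0.116 and 0.120) or FGF-2 replicate 1 or 2 (0.159 and 0.0907). Of the fits without 1 array, Sema5a passed only in that without vector replicate 2. Its adjusted p was 0.125 and 0.0695 without vector replicates 1 and 3, and 0.186, 0.157 and 0.0596 without FGF-2 replicates 1, 2 and 3. The log2 difference of the 7 genes stayed positive in each of these fits, with a lowest value of 0.84, for Efnb2 without FGF-2 replicate 2. By the methods' t-test none of the 7 passed after adjustment over all genes (adjusted p of 0.164 to 0.302), and 8 guidance genes were higher and 2 lower at an unadjusted p under 0.05, against 7.35% and 5.58% of all genes. In an exact permutation test the two-sided p was 0.1 for each of the 7 genes, and 3 arrays against 3 cannot give a smaller one. A total of 9 guidance genes had all FGF-2 arrays above all vector arrays and 4 had them all below, against 11.3% and 9.93% of all genes.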

How the data were processed

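Sorted NG2+EGFP− cells in 3 samples of vector and 3 of FGF-2 tumors were profiled on Affymetrix mouse gene arrays. The values are log2 expression levels as deposited by the authors, whose service laboratory normalized them. Affymetrix Expression Console is named in the submitters' processing notes, and its version and summarization method are not given in the sources used here. The values ran from 1.95 to 13.42 and were used as they stood. Of 33793 probe sets, 23521 carried 1 gene symbol, 1820 several and 8452 were not listed in the annotation, and the latter 2 kinds were left out. For 1082 genes with several probe sets the one with the highest mean was kept. All 66 members matched a RefSeq gene of GRCm38.p6 by identifier, with 0 symbols that differed.

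Groups were compared in R 4.3.3 with limma 3.58.1 (lmFit and eBayes, two-sided), with p values adjusted by the Benjamini-Hochberg method over 22180 genes. The labels call the samples biological and do not tie them to animals, so p values measure the spread between these samples. No list was tested as a set. Members and lists were chosen with earlier results of these data known. Guidance genes named with each array were those that passed, those with an unadjusted p under 0.05, and in each family those with the highest and lowest difference, and genes of other lists were named where they passed or, in pathway lists, were among the smallest p values. Cspg4 was named as the gene of the sorting antigen. Nrp1, Nrp2, Neo1, Dcc, Kdr, Draxin and S100a9 were named outside this rule, after their values were seen. In data simulated for this comparison with 22180 genes, 29 of 50 genes were recovered at a true log2 difference of 0.58. The counts were 49 of 50 at 1, 50 of 50 at 1.5 and 50 of 50 at 2. Of 188 calls, 10 were false. Each gene's scatter was drawn on its own there, so array deviations that recur from gene to gene, as seen in these arrays, were absent. Recovery and false calls in the measured data may therefore differ from these counts. The number of arrays limits the precision.

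The fit was repeated blocking on replicate number, with values quantile normalized again or centred by array median, with low means filtered out, with probe sets of a gene averaged, with a trend and robust estimation in eBayes, with array weights, with the methods' t-test, and without each array in turn. Promoter stretches came from RefSeq sequences of GRCm38.p6.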

Additional observations from a re-analysis of the deposited data

How the results depend on the processing

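All 7 risen guidance genes also passed when blocked on replicate number, after another quantile normalization, with arrays centred on their medians, with probe sets of a gene averaged, with trend and robust estimation, and with array weights, and no guidance gene fell in any setting tried. Over genes with a mean level of at least 5, 6 of 38 guidance genes rose, and Sema3a was not among those tested. Over genes above the median mean 3 of 27 rose, Sema5a, Sema7a and Slit3, since the others were not tested. By the methods' t-test no guidance gene passed after adjustment (0 risen, adjusted p values of 0.164 to 0.302 for the 7), and 8 were higher and 2 lower at an unadjusted p under 0.05. Leaving out 1 array gave 2 to 6 risen guidance genes. With Unc50 counted, which was chosen after seeing the data, or without Ntng1 and Ntng2, 7 rose.

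The labels do not say whether replicate numbers pair the samples. Deviations from the group means correlated across genes at -0.02, 0.19 and 0.26 for like numbers 1, 2 and 3. Between unlike numbers the correlations ran from -0.26 to 0.13. With the replicate block 362 genes rose and 132 fell, with array quality weights 394 and 160, and by the methods' t-test 0 and 2. Leaving out 1 array gave 65 to 280 risen and 10 to 159 fallen genes.

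The median log2 difference of a family moved with the members tested. Above the median mean it was -0.43 for netrins, 0.46 for Slits, -0.046 for plexins and -0.39 for EphA receptors. At a mean of at least 5 it was -0.046 for plexins, 0.23 for EphB receptors and 1.43 for Robo receptors, of which Robo1 alone was tested. Leaving out 1 array gave medians of -0.17 to -0.011 for plexins, 0.015 to 0.14 for EphB receptors, -0.33 to -0.070 for ephrin-B ligands and 0.0012 to 0.12 for Robo receptors. Signs turned only in differences that had not passed. That of Robo2 was 0.032 after quantile normalization and 0.031 with centred arrays, and -0.16 to 0.11 with 1 array left out. With 1 array left out Ephb1 ran from -0.21 to 0.070, Efna2 from -0.035 to 0.45 and Efna1 from -0.44 to 0.061. The cause was not tested. None of the 19 other named guidance genes passed in any of 271 repeats.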
